A study of Mus musculus with 6 samples.

Results

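Transcripts of 9 genes that move salt and water across the colon epithelium were examined in colon mucosa of mice lacking microRNA-21. The genes were Slc26a3, Slc9a3, Slc12a2, Aqp8, Scnn1a, Scnn1b, Scnn1g, Atp12a and Cftr, and every array probe carrying one of these symbols was taken. Of the 9 genes, 8 had a probe, out of 18138 symbols in the probe table, with 12 probes in all out of 25697. No probe carried the symbol Slc9a3, the apical sodium-proton exchanger, so it has no value here.

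The study measured total RNA on 1-colour bead arrays, 1 array per sample, with 3 samples in each of 2 groups. The knockout mice were miR-21-/- (KO) on a C57BL/6 background, from another laboratory, and the wild type (WT) c57BL/6 mice were bought from Taconic. None was given colitis, and age and sex are not given in the sources used here. Genotype and source of the mice cannot be told apart in any difference reported here. The labels do not say that replicates came from separate animals, and p-values then cover only the spread among these samples, which may be technical.

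In the colon, salt is absorbed by paired exchange of sodium for protons and of chloride for bicarbonate, and in the distal part also through the epithelial sodium channel, which aldosterone controls. Potassium is taken up by a proton pump, and water follows salt, in part through aquaporins. Fluid secretion runs the other way: chloride enters the cell from the blood side by a cotransporter and leaves into the lumen through the CFTR channel.

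The deleted microRNA is printed first because its loss defines the KO group. It has no probe on the array, so its loss was not checked here. In the RefSeq entries for build GRCm38.p6 the 5p arm lies at chr11:86584120-86584141 and the 3p arm at chr11:86584082-86584103, both on the minus strand. Capitals mark the seed, bases 2 to 8 from the 5′ end.
mmu-miR-21a-5p: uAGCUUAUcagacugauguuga
mmu-miR-21a-3p: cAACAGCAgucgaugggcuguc

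Bases just upstream of the annotated start are shown for Aqp8, whose transcript fell, and for Scnn1b and Scnn1g, which are neighbours on chromosome 7 with 0 protein-coding genes between them and which shared a high value on one WT array. Such windows for 6 of the 9 genes, credited to RefSeq (GRCm38.p6), were used here. Each run is 250 bases, on the plus strand, and capitals mark the motifs found.
Aqp8, chr7:123462044-123462293: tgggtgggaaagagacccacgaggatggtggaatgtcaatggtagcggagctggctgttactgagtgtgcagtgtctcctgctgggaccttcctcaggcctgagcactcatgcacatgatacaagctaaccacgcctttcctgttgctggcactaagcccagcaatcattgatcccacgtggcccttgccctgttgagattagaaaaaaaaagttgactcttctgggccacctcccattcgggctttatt
Scnn1b, chr7:121864788-121865037: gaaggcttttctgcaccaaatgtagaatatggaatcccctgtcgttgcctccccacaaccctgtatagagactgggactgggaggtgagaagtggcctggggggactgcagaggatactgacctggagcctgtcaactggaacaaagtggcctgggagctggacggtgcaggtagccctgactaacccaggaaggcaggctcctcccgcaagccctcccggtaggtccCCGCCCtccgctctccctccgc
Scnn1g, chr7:121734229-121734478: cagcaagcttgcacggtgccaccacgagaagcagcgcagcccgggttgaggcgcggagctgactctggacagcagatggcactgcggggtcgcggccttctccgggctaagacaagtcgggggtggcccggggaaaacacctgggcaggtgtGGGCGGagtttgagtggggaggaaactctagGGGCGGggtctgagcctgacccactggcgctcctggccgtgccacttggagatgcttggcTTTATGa

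Short motifs were searched on both strands. TGTTCT is the core of the site bound by the glucocorticoid and mineralocorticoid receptors, TTTATG is a motif of the intestinal factor CDX, TATAAA is the TATA box and GGGCGG is the GC box. Scnn1b held 1 GC box, starting 22 bases before the start site. Scnn1g held 2 GC boxes, 98 and 67 bases before it, and 1 TTTATG, 7 bases before it. Aqp8 held none of the motifs. TGTTCT was in none of the 6 windows available, against 16.1% of 32851 windows of the same length for all RefSeq genes, where TTTATG was in 10.8%, TATAAA in 12.4% and GGGCGG in 32.7%. These are matches of letters and show no binding.

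Intensities were background-corrected, quantile-normalized and put on a log2 scale, and probes whose detection p-value, against negative control beads, was under 0.05 on at least 3 of 6 arrays were tested with limma. Of the 12 probes 10 were tested, covering all 8 genes with a probe. Median raw intensity was 98.3 to 109.3 on KO arrays and 97 to 115 on WT arrays, and detected probes were 53.9 to 54.6% of all on KO arrays and 50.4 to 52.3% on WT arrays. On the tested transport probes the standard error between beads was 2.14 to 6.42% of the intensity. The precision is limited by the number of arrays. Levels of different probes cannot be compared, since each binds with its own strength.

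The tissue labelled colon mucosa carried the transcripts of its epithelium on all 6 arrays. The keratin Krt8 read 13.84 to 14.09 log2 units on KO arrays and 13.84 to 14.01 on WT arrays, and the goblet cell lectin Zg16 read 14.46 to 14.50 on KO arrays and 14.20 to 14.51 on WT arrays. The markers Epcam, Muc2 and Car1 had no probe under those symbols. Muscle transcripts were present as well, with Acta2 at 14.02 to 14.46 on KO arrays and 13.29 to 14.13 on WT arrays.

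Transcripts of 2 of the 8 genes were lower in KO mucosa: Aqp8, a water channel of the colon surface epithelium, on both of its probes, and Atp12a, the catalytic subunit of the colonic proton-potassium pump. None rose. With limma and Benjamini-Hochberg adjustment over all 13737 tested probes at a threshold of 0.05, 3 of 10 transport probes were lower and 0 higher, against 7.55% of all tested probes lower and 7.53% higher. At an unadjusted p under 0.05, 4 of the 10 were lower, the fourth being Scnn1g, and 0 higher, against 15.6% of all tested probes lower. On 5 of the 10 probes all KO arrays lay below all WT arrays, which held for 17% of all tested probes, and on 0 did they lie above. The median log2 difference, KO minus WT, was -0.43 over the 10 probes and 0.03 over all tested probes. Both Aqp8 probes enter these counts. By gene, 2 of 8 were lower at the adjusted threshold, against 7.63% of all tested genes. The 9 genes were chosen with earlier results of these data known, so these comparisons are no added support.

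**Figure D1:**
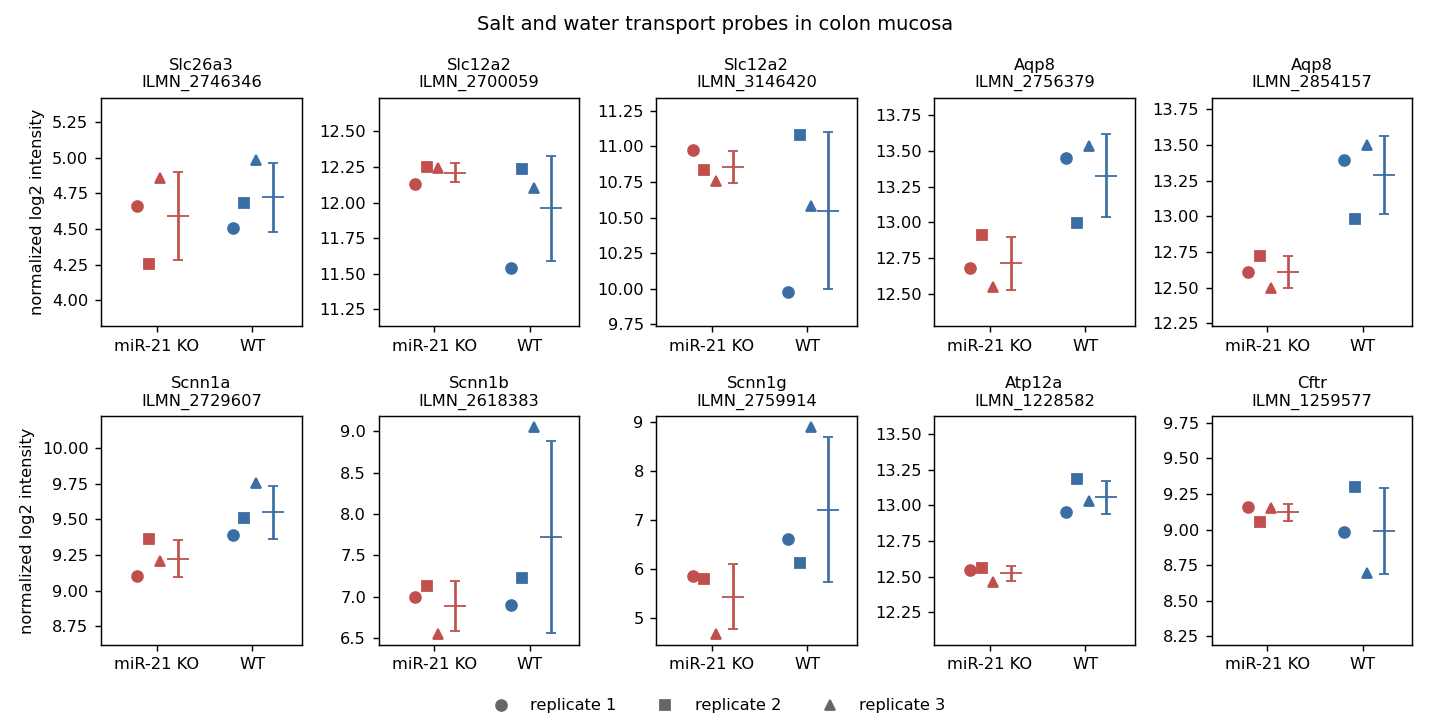
Normalized log2 intensity of the 10 tested probes on each array, miR-21 KO in red on the left of each panel and WT in blue on the right, with marker shape for the replicate and the mean and SD (n = 3) beside the points. The axes differ between panels. KO and WT do not overlap for Aqp8, Atp12a, Scnn1a and Scnn1g, and WT replicate 3 stands above the other arrays for Scnn1b and Scnn1g.

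Among the exchangers of electroneutral absorption, Slc26a3, the apical chloride-bicarbonate exchanger, could be read only near background. Its probe ILMN_2746346 had 4.66, 4.26 and 4.86 log2 units in KO and 4.51, 4.68 and 4.98 in WT, with 2 of 3 arrays of each group detecting it. The lowest value among detected probes was 4.52 to 4.54 on KO arrays and 4.59 to 4.65 on WT arrays. The groups overlapped, and the log2 difference of -0.13 ± 0.19 (SE) did not pass (adjusted p = 0.677). The 95% confidence interval was -0.57 to 0.30, and this close to background a decrease in Slc26a3 could not be read.

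Aqp8 was measured by 2 probes. Probe ILMN_2756379 read 12.68, 12.91 and 12.54 log2 units on the KO arrays, against 13.45, 13.00 and 13.53 on the WT arrays. Probe ILMN_2854157 read 12.61, 12.72 and 12.50 in KO and 13.39, 12.98 and 13.50 in WT. On both probes every KO array lay below every WT array, and WT replicate 2 was the WT array nearest to KO. In raw intensity, before normalization between arrays, the KO values of the second probe were 6105, 7019.6 and 4677.1, against 12464.1, 10095.2 and 9942.8 in WT. Aqp8 was 1.53-fold lower in KO on the first probe (log2 difference -0.62 ± 0.18 (SE), limma adjusted p = 0.0491) and 1.61-fold lower on the second (-0.68 ± 0.17, adjusted p = 0.0286). Both calls were lost without any one of KO replicates 1 to 3 or WT replicates 1 and 3 (adjusted p = 0.0649 to 0.137), and both held without WT replicate 2 (0.0200 and 0.0131). The call of the first probe was also lost with cyclic loess normalization (adjusted p = 0.0621), with the deposited log2 values (0.0569) and with no filter on dim probes (0.0977). A block for replicate number in the limma fit ended it too (0.0673). The call of the second probe was lost with no filter (0.0545). Median scaling instead of the quantile step gave a difference of -0.95 on the first probe.

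Atp12a, which recovers potassium from the lumen in exchange for protons, had the tightest groups of the called probes. Its single probe ILMN_1228582 read 12.55, 12.56 and 12.46 log2 units in KO, against 12.96, 13.18 and 13.03 in WT. The means were 12.52 ± 0.05 in KO and 13.06 ± 0.12 in WT (SD, n = 3 each), so the groups were further apart than the spread within either. Atp12a was 1.45-fold lower in KO (95% confidence interval of the KO over WT ratio 0.561 to 0.852, log2 difference -0.53 ± 0.13, adjusted p = 0.0305). Leaving out any single array ended the call (adjusted p = 0.0609 to 0.102), with the difference between -0.58 and -0.47. Median scaling gave -0.84, still past the threshold.

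Some markers of mature colonocytes, the cells that line the surface and carry these transporters, moved with Aqp8 and Atp12a. Of 7 tested markers 4 fell and 0 rose, against 7.63% of all tested genes lower and 8.04% higher. The largest of these decreases were those of Ceacam20, an adhesion molecule of microvilli (-1.35 ± 0.18, adjusted p = 0.00416), and villin, Vil1, an actin-bundling protein of microvilli (-1.15 ± 0.17, adjusted p = 0.00646). The surface keratin Krt20 (-0.63) and the carbonic anhydrase Car4 (-0.56) fell as well. Cdhr5 and Cdhr2, microvillus cadherins, were at 0.01 each and Ceacam1 was at -0.05, and none of these passed. Summed over the 7 markers, normalized intensity was 23258 to 26325 in KO and 31409 to 37486 in WT, without overlap. Their part in the Aqp8 and Atp12a results was not tested. In bulk mucosa, fewer cells of a type and less RNA per cell cannot be told apart. Of 5 general epithelial markers 1 rose (Krt18, 0.62 ± 0.17, adjusted p = 0.0361), 0 fell and 2 had an unadjusted p under 0.05. Of 5 goblet cell markers 0 passed with limma (1 at an unadjusted p under 0.05).

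**Figure D2:**
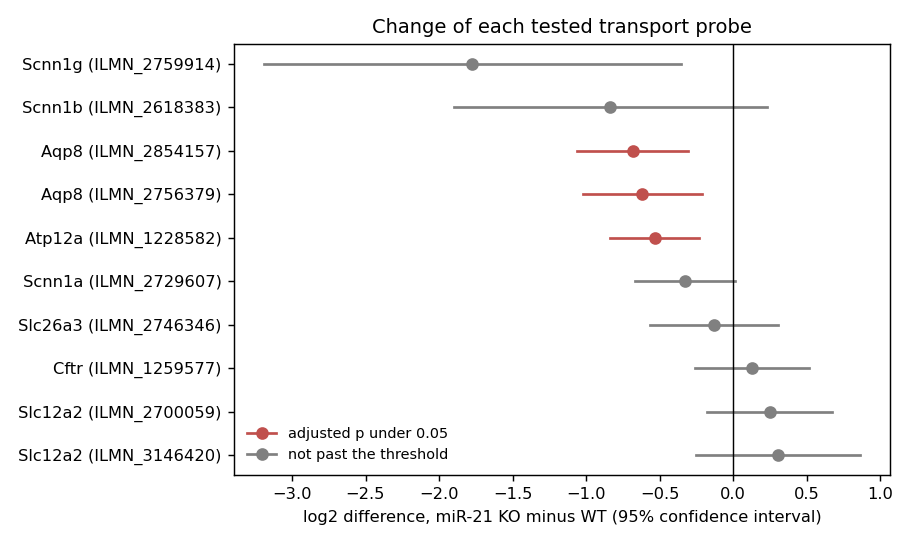
Log2 difference, miR-21 KO minus WT, for each tested probe with its 95% confidence interval from limma (3 arrays per group), in red where the adjusted p was under 0.05. The Aqp8 and Atp12a probes lie between -0.68 and -0.53, and the widest intervals are those of Scnn1g and Scnn1b.

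The epithelial sodium channel is built from 3 subunits, alpha (Scnn1a), beta (Scnn1b) and gamma (Scnn1g), and none passed the test. Scnn1g read 5.84, 5.78 and 4.66 log2 units in KO and 6.61, 6.11 and 8.89 in WT. WT replicate 3 stood more than 2 log2 units above the next array, KO replicate 3 was the lowest, and the groups did not overlap. KO replicate 3 at 4.66 lay near the lowest detected value of that array, 4.54. The log2 difference was -1.77 ± 0.63 (adjusted p = 0.0869), and with no background correction it was -0.96 (adjusted p = 0.212). Without WT replicate 3 it was -0.93 ± 0.36 (adjusted p = 0.141), and without WT replicate 2 it was -2.32 ± 0.61 (adjusted p = 0.0369).

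Scnn1b showed the same high array. It read 7.00, 7.12 and 6.54 in KO and 6.90, 7.22 and 9.06 in WT, so that the groups overlapped apart from WT replicate 3. The log2 difference of -0.84 ± 0.47 did not pass (adjusted p = 0.255), and it was -0.17 ± 0.21 without WT replicate 3 (adjusted p = 0.651). The excess was present in the deposited intensities, where Scnn1b had 426.9 on WT replicate 3 and 148.3 to 271.8 on the other 5 arrays, and Scnn1g 385.6 against 98.2 to 187.8. WT replicate 3 had the lowest median intensity of the 6 arrays.

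Scnn1a, the subunit the other 2 join to form the channel, varied least. Its values were 9.10, 9.36 and 9.21 in KO and 9.39, 9.51 and 9.75 in WT. The KO arrays lay below the WT arrays by a narrow margin, and the log2 difference of -0.33 ± 0.15 did not pass (adjusted p = 0.170). Whether the subunits differed in their change was tested on the per-array difference between their probes, for 3 pairs. The KO minus WT contrast was -0.94 for Scnn1g minus Scnn1b (two-sided exact permutation p = 0.1, the smallest that 3 against 3 allows), -1.45 for Scnn1g minus Scnn1a (exact p = 0.2) and -0.51 for Scnn1b minus Scnn1a (exact p = 0.7). Adjusted over the 3 pairs these were 0.30, 0.30 and 0.70, so no pair was shown to differ, and the design could not have reached 0.05. With no background correction the contrast was -0.36 for Scnn1g minus Scnn1b and -0.67 for Scnn1g minus Scnn1a, and with an offset of 50 it was -0.56 for Scnn1g minus Scnn1b (adjusted exact p = 0.30 for each).

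The genes whose pattern over the 6 arrays was most like that of each subunit were sought among 9865 genes by the root mean square difference of centred log2 values. For Scnn1b these were Sord, sorbitol dehydrogenase (0.26 log2 units), Hkdc1, a hexokinase-like gene (0.28), and Kyat1, a kynurenine aminotransferase (0.33). Hkdc1 read 4.74, 4.69 and 4.47 in KO and 4.41, 4.63 and 6.09 in WT. Except on WT replicate 3 it lay near the lowest detected values, 4.52 to 4.65 over the arrays. Sord read 8.54, 8.73 and 8.58 in KO and 8.45, 8.40 and 10.41 in WT, so the likeness rests on the high value of WT replicate 3. For Scnn1g they were Slc7a9, an amino acid transporter subunit (0.50), Scnn1b itself (0.60) and Marcksl1, an actin-binding protein gene (0.63). Slc7a9 read 5.29, 5.38 and 5.34 in KO and 6.45, 6.67 and 9.47 in WT. Seen from Scnn1b, Scnn1g ranked 229 of the 9865.

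Fxyd4, a regulator of the sodium pump that is induced by corticosteroids in rat colon, was chosen after its values were seen because it ranked 5 by likeness to Scnn1b. Its main probe read 11.38, 11.03 and 10.93 in KO and 11.41, 11.49 and 12.57 in WT, again highest on WT replicate 3 (log2 difference -0.71 ± 0.29, adjusted p = 0.124). Sgk1, an aldosterone-induced kinase that keeps the sodium channel at the surface, did not share that pattern. It read 12.57, 11.76 and 10.81 in KO and 12.11, 11.66 and 11.10 in WT, with replicate 3 the lowest array of each group (0.09 ± 0.41, adjusted p = 0.905).

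Genes that mark position along the colon were read as well. Hoxd10 fell (-1.35 ± 0.27, adjusted p = 0.0151) and Hoxd12 fell (-0.88 ± 0.23, adjusted p = 0.0326), 2 of 5 tested distal markers, with 0 higher. The shares over all tested genes were 7.63% lower and 8.04% higher. At an unadjusted p under 0.05 there were 4, against 15.6% of all tested genes lower and 17.8% higher. Insl5 was among the 4 but went the other way, with every KO array above every WT array (0.57 ± 0.17, adjusted p = 0.0519). Hoxd13 read 7.32, 6.95 and 4.99 in KO and 7.16, 7.19 and 6.97 in WT, lowest on KO replicate 3, the array that was also lowest for Scnn1b and Scnn1g. The summed intensity of the 5 markers, most of it from the hormone gene Insl5, was 6175 to 6924 in KO and 4417 to 5757 in WT. The part of position in the sodium channel values was not tested.

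**Figure D3:**
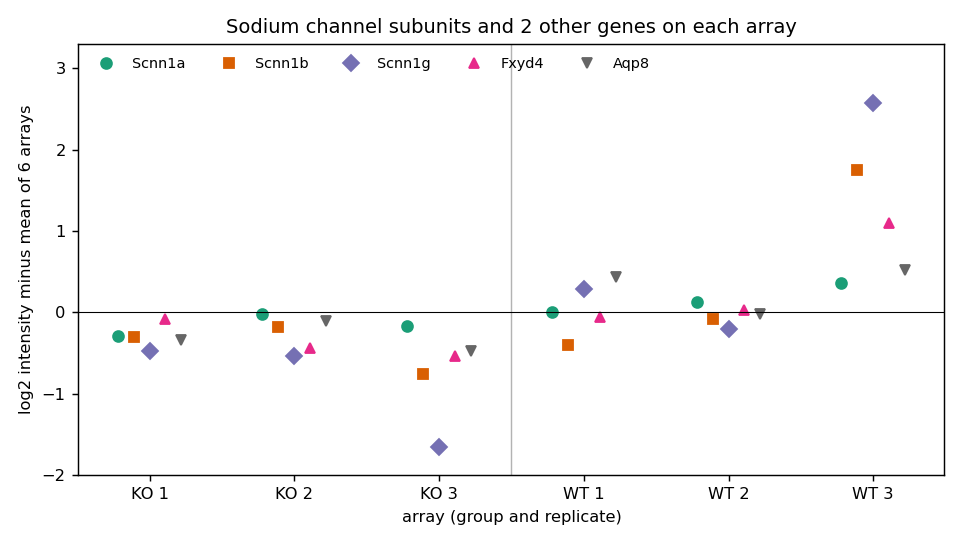
Log2 intensity on each array minus the mean of the 6 arrays, for Scnn1a, Scnn1b, Scnn1g, Fxyd4 and one Aqp8 probe, KO arrays on the left of the grey line and WT arrays on the right. WT replicate 3 is the highest array for all 5 genes, and KO replicate 3 is the lowest for Scnn1b, Scnn1g, Fxyd4 and Aqp8.

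Genes of chloride secretion did not pass the test. Slc12a2, the cotransporter that loads sodium, potassium and chloride into the cell, had 2 tested probes. Probe ILMN_2700059 read 12.13, 12.25 and 12.24 log2 units in KO and 11.54, 12.23 and 12.11 in WT, and probe ILMN_3146420 read 10.98, 10.83 and 10.75 in KO and 9.98, 11.08 and 10.58 in WT. On both probes WT replicate 1 was the lowest array and the groups overlapped. The log2 differences were 0.25 ± 0.19 (adjusted p = 0.398) and 0.31 ± 0.25 (adjusted p = 0.426), and that of the first probe was -0.02 with median scaling. Without WT replicate 1 they were 0.04 and 0.02.

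Its other 2 probes were too dim to test. ILMN_3068197 was detected on 0 of 3 KO arrays and 2 of 3 WT arrays, and ILMN_2617892 on 0 of 6. The first had measured means of 4.43 in KO and 4.60 in WT, and the groups overlapped.

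Cftr, the apical chloride channel that is defective in cystic fibrosis, read 9.16, 9.05 and 9.15 in KO and 8.98, 9.30 and 8.69 in WT. The KO arrays lay inside the range of the WT arrays, with WT replicate 3 the lowest. The log2 difference was 0.13 ± 0.17 (95% confidence interval -0.26 to 0.51, adjusted p = 0.643), and it was -0.02 without WT replicate 3.

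Around these genes, 74 others that serve or control salt and water transport were described in 5 lists. Of these 54 were tested, by the brightest probe of each, 7 rose and 5 fell, or 12 of 54, against 8.04% of all 10348 tested genes higher and 7.63% lower. Their median log2 difference was 0.13, against 0.03 over all tested genes. All 12 were detected on all 6 arrays. Their groups did not overlap, but the 12 were picked by the test on these same values, so this is no added support.

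Among other chloride, bicarbonate and sodium-proton transporters and their scaffolds, 3 of 14 rose and 2 fell (median log2 difference 0.15). The shares over all tested genes were 8.04% higher and 7.63% lower. Best2, a bicarbonate-conducting channel of colonic goblet cells, read 8.55, 8.49 and 7.41 in KO, against 5.39, 5.43 and 5.72 in WT. It was 6.21-fold higher in KO (2.64 ± 0.28, adjusted p = 0.00129), and its call held under all 16 alternative settings tried. The log2 difference was 1.54 with no background correction and 2.00 with an offset of 50. The goblet cell markers summed to 54363 to 57777 in KO and 45932 to 49738 in WT, a sum carried by the bright probes of Clca1, Zg16 and Tff3. None of these markers passed with limma. Clca1 had 0.39 (adjusted p = 0.0869), Zg16 0.14, Tff3 0.02, Spdef -0.06 and Agr2 -0.48. The part of goblet cells in the Best2 result was not tested.

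The PDZ scaffolds that anchor the sodium-proton exchanger Slc9a3 moved in opposite directions. Slc9a3r1 read 11.00, 10.75 and 10.58 in KO and 11.32, 11.25 and 11.29 in WT (-0.51 ± 0.15, adjusted p = 0.0483). Slc9a3r2 read 7.20, 7.20 and 7.41 in KO and 6.33, 6.57 and 6.69 in WT (0.74 ± 0.15, adjusted p = 0.0155). The first fell 1.42-fold and the second rose 1.67-fold. Slc9a8, another sodium-proton exchanger of intestinal epithelium, rose 1.59-fold on its main probe (0.67 ± 0.15, adjusted p = 0.0198), while its other 2 tested probes had 0.37 and 0.42 and did not pass. Clcn2, a chloride channel of colonocytes, fell 1.53-fold (-0.62 ± 0.16, adjusted p = 0.0323). The call was lost under 9 of the 16 alternatives for Slc9a3r1, 6 for Clcn2, 3 for Slc9a8 and 2 for Slc9a3r2. With no background correction the log2 difference was 0.39 for Slc9a8 and 0.44 for Slc9a3r2, both still past the threshold.

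Sodium pump and potassium channel genes gave 1 rise and 0 falls among 11 tested (median 0.18), against 8.04% of all tested genes higher and 7.63% lower. Fxyd3, a pump regulator, rose 1.45-fold (0.54 ± 0.15, adjusted p = 0.0418), a call lost under 7 of the 16 alternatives. The beta subunit gene Atp1b1 (0.00 ± 0.17, adjusted p = 0.992) did not pass. For the potassium channel Kcnk5 only the dimmer of 2 probes fell (ILMN_1232263, -0.66 ± 0.18, adjusted p = 0.0371), and the brighter had -0.41 ± 0.19.

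Of the other aquaporins 2 of 3 tested rose and 0 fell (median 1.00), where Aqp8 fell. The shares over all tested genes were 8.04% higher and 7.63% lower. Aqp1, a water channel best known from endothelium and kidney, read 9.14, 9.09 and 9.25 in KO and 7.83, 8.38 and 8.27 in WT. It rose 2.00-fold (1.00 ± 0.17, adjusted p = 0.00945), its other 2 probes rose by log2 differences of 1.36 and 1.18, and the call held under all 16 alternatives. Aqp4, which mouse gut epithelium carries on its basal side, read 11.68, 11.45 and 12.31 in KO and 11.42, 10.48 and 10.09 in WT. The gap between the lowest KO and the highest WT array was narrow, and the rise (1.15 ± 0.33, adjusted p = 0.0478) was lost under 13 of the 16 alternatives. Aqp11 had 0.39 ± 0.20 and did not pass (adjusted p = 0.219).

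Transcripts of cells outside the epithelium differed alongside. Markers of the crypt base, which is part of the epithelium, and of proliferation are given last. At an adjusted p under 0.05 with limma, 7.63% of all tested genes were lower and 8.04% higher. At an unadjusted p under 0.05, 15.6% were lower and 17.8% higher. Of 5 tested adipocyte markers 5 rose, with a summed intensity of 5618 to 16666 in KO and 178 to 2786 in WT. Of 6 smooth muscle markers 1 rose (Cnn1, 0.82 ± 0.18, adjusted p = 0.0208). All 6 had an unadjusted p under 0.05, with log2 differences of 0.54 to 0.84, and their sum was 34806 to 48508 in KO and 19365 to 37014 in WT. Of 5 fibroblast markers 1 rose (Col1a2, 0.77 ± 0.19, adjusted p = 0.0299) and 2 had an unadjusted p under 0.05, with sums of 12684 to 13501 in KO and 10170 to 13292 in WT. Of 5 leukocyte markers 2 fell, the lymphocyte genes Cd79b and Cd3g, and 3 had an unadjusted p under 0.05, with sums of 1813 to 2920 in KO and 2890 to 10252 in WT. Of 5 crypt base and proliferation markers 0 passed with limma (1 at an unadjusted p under 0.05), with sums of 567 to 1045 in KO and 673 to 856 in WT. The part of these cells in the aquaporin results was not tested.

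In the list of mineralocorticoid response and sodium channel regulation, 0 of 20 rose and 2 fell (median 0.08), against 8.04% of all tested genes higher and 7.63% lower. Sgk2, a kinase related to Sgk1, read 6.76, 7.77 and 7.79 in KO, against 9.41, 9.24 and 9.92 in WT. It was 4.25-fold lower (-2.09 ± 0.29, adjusted p = 0.00477) on its main probe and 3.45-fold lower on the other (-1.79 ± 0.21, adjusted p = 0.00236), and the call held under all 16 alternatives. Usp2, a deubiquitinating enzyme with an aldosterone-induced form in mouse kidney, fell 1.53-fold (-0.61 ± 0.16, adjusted p = 0.0335), a call lost under 7 of the 16 alternatives, with a difference of -0.38 under no background correction. No probe carried the symbol Nr3c2, the mineralocorticoid receptor. Nr3c1, the glucocorticoid receptor, had 0.13 ± 0.17 (adjusted p = 0.640), and Hsd11b2, which protects the mineralocorticoid receptor from glucocorticoids, had 0.52 ± 0.44 (adjusted p = 0.451). Probes disagreed for Tsc22d3, a glucocorticoid-induced gene whose brighter probe had -0.14 and whose dimmer probe fell (-0.68 ± 0.19, adjusted p = 0.0406), and for Wnk1, a kinase that governs chloride cotransporters, at 0.18 on the brighter and 1.03 ± 0.27 on the dimmer probe (adjusted p = 0.0346).

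Among signals of secretion and absorption 1 of 6 rose and 1 fell (median 0.01), against 8.04% of all tested genes higher and 7.63% lower. Guca2b, uroguanylin, a gut peptide that drives chloride and bicarbonate secretion, read 8.23, 8.26 and 9.25 in KO and 7.94, 7.19 and 7.61 in WT (1.00 ± 0.29, adjusted p = 0.0479), a call lost under 13 of the 16 alternatives, with a difference of 0.66 without KO replicate 3. Its relative guanylin, Guca2a, read 14.31, 13.68 and 14.51 in KO and 14.30, 13.96 and 13.57 in WT and did not pass (0.23 ± 0.25, adjusted p = 0.566).

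**Figure D4:**
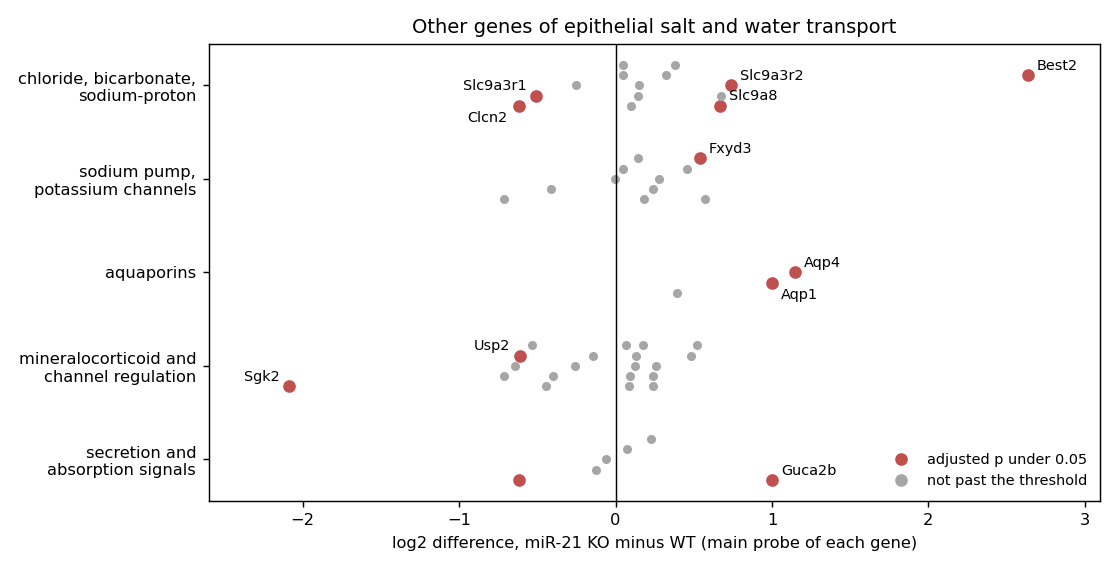
Log2 difference, miR-21 KO minus WT, of the 54 tested genes of 5 lists of salt and water transport, 1 point per gene from its brightest probe, with the 12 genes past the adjusted p threshold in red and those described in the text named. Best2 lies furthest to the right at 2.64 and Sgk2 furthest to the left at -2.09.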

How the data were processed

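Per the file headers, the deposited table holds, for 25697 probes and 6 arrays, mean bead intensity not normalized between arrays, a detection p-value against negative control beads, and 2 other bead measures, their standard error and number. A deposited log2 table that the authors had normalized holds 18010 probes; on each array it correlated with the values computed here at r = 0.9999, rounded. The submitters' processing notes name limma. How the arrays were read is not given there.

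Here limma 3.58.1 under R 4.3.3, with statmod 1.5.0, was applied to the intensities. Its neqc function inferred the negative controls from the detection p-values, corrected by normexp, added an offset of 16, equalized quantiles and took log2. Probes detected (p under 0.05) on at least 3 of 6 arrays (13737) were fitted with lmFit and eBayes, for KO minus WT in a two-sided test, and p-values were adjusted over all of them by Benjamini-Hochberg. The script was tested on simulated data. Groups came from the sample titles. Symbols were updated with a GRCm38.p6 gene table by Entrez ID (23788 probes) or accession (1148). A listed gene is read from its tested probe with the highest mean. The 9 genes and the lists were chosen with earlier results of these data known. Named were all 9 genes, and from the 5 context lists each gene past the threshold or with a difference of at least 1, apart from a result not reported here. Fxyd4, Sgk1, Nr3c1, Hsd11b2, Guca2a, Atp1b1, Aqp11 and the marker genes named were chosen after their values were seen. So were Kcnk5, Tsc22d3 and Wnk1, for which only a dimmer probe passed. The 16 alternatives covered filter, scaling, background, offset, deposited values, variance model, array weights, replicate block and leaving out each array.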

Additional observations from a re-analysis of the deposited data

How the results depend on the processing

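Over all probes 2071 passed; 1331 did with median scaling, 3772 with array weights and 460 to 2116 with 1 array left out. Of the passing probes 49.9% were higher, and 35.7% with median scaling. The count of 3 transport probes lower in KO became 1 with no filter on dim probes and 2 with cyclic loess or with the deposited log2 values. With 1 array left out it was 0 to 3: 0 without KO replicate 1, 2 or 3 or WT replicate 1 or 3, and 3 without WT replicate 2. Those 3 were not the same set: both Aqp8 probes stayed (limma adjusted p = 0.0200 and 0.0131), Atp12a was lost (0.0652) and Scnn1g passed (0.0369). No transport probe passed as higher under any of the 16 alternatives. Of the listed context genes, the 5 lower became 2 with no filter, 3 with median scaling, 8 with array weights and 1 to 4 with 1 array left out, and the 7 higher became 4 with no filter, 4 with median scaling and 2 to 6. With no filter more probes are tested, and with an array left out there are fewer samples; otherwise the cause was not tested.

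The difference changed sign for Slc26a3 (0.0352 without KO replicate 2; -0.26 to 0.04 with 1 array left out), for Slc12a2 probe ILMN_2700059 (-0.0228 with median scaling) and for Cftr (-0.0203 without WT replicate 3; -0.02 to 0.28), none past the threshold. The sodium channel contrasts kept their sign under the 5 alternatives run, where no p under 0.1 could be had.

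The labels do not say that same-numbered KO and WT arrays belong together, so the main fit took no pairs. Same-numbered arrays correlated in their deviations at 0.01, 0.15 and 0.06, and KO replicate 1 correlated at 0.02 with WT replicate 2. With 3 arrays per group, values this small cannot decide whether the numbers pair samples. Replicate 3 had the lowest median intensity in each group (98.3 in KO and 97 in WT). With the replicate block 2154 probes passed, 2 of the transport probes among them (Aqp8 probe ILMN_2756379 had adjusted p = 0.0673). Dim signal limits Slc26a3, 2 Slc12a2 probes and Scnn1g on KO replicate 3.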
